A study of Mus musculus with 6 samples.

Results

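Cortical neurons that are depolarized switch on a set of genes whose products act at the synapse or leave the cell. RNA bisulfite sequencing (RNA BS-seq) libraries were examined for 9 such genes, chosen by symbol: the postsynaptic protein gene Arc, the kinase gene Plk2, the G protein regulator gene Rgs2, the pentraxin genes Nptx1 and Nptx2, the neuritin gene Nrn1, the activin subunit gene Inhba, the prohormone convertase gene Pcsk1, and the prostaglandin synthase gene Ptgs2. They are 9 of the 15994 genes named in the lists. All cytosines called as methylation candidates in these genes were taken from all 6 libraries. Cells were C57BL/6 WT cortical neurons from E16.5 embryos, pooled male and female, grown in vitro for 7 days. All cultures were first silenced overnight with 1 µM tetrodotoxin (TTX), which blocks sodium channels, and 100 µM DL-AP5, which blocks NMDA receptors, and were then given KCl at 55 mM, with none (0 h), 2 h, or 6 h of exposure. The 0 h group is therefore a silenced culture and not one with spontaneous firing. There were 2 libraries of poly(A) RNA at each time point.

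Depolarization with KCl opens voltage-gated calcium channels, and the calcium signal reaches the nucleus, where factors such as CREB and SRF start the transcription of immediate early genes. Many of the first of these encode transcription factors, such as Fos and Npas4, while others encode effectors that change synapses directly or are released from the cell. In RNA BS-seq, unmethylated cytosines are converted and read as T, and 5-methylcytosine (m5C) is still read as C, so that the share of unconverted reads at a cytosine is taken as its methylation level. Incomplete conversion also leaves C, and the share does not tell the sources apart. The number of reads covering a cytosine additionally follows the abundance of the RNA.

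Cytosines named in the results below are shown with 10 bases on either side, 5′ to 3′ on the strand of the mRNA, with the cytosine in capitals. The first is the sole cytosine of the 9 genes that passed the standard filter in a library, the next pair had the highest mean level within their own gene among cytosines with at least 20 reads in all 6 libraries, and the last pair had the lowest p-values between time points in their genes. All coordinates are GRCm38.
Pcsk1, 3′ UTR, chr13:75132908, plus strand: gtagaggtctCtatgggtcaa
Plk2, CDS, chr13:110397844, plus strand: cagaggaccgCcccagtttgg
Rgs2, CDS, chr1:144004041, minus strand: gccccaaggtCgaggagaagc
Pcsk1, CDS, chr13:75115297, plus strand: ggcttcagcaCccctggctgc
Rgs2, 3′ UTR, chr1:144001662, minus strand: agtccccccaCacacaaagga
None of the sites chosen for their level, these 3 among them, has G at all of the positions +2 to +4.

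RefSeq promoters (GRCm38.p6), of which the 250 bases before the start were searched, were held for Rgs2, Ptgs2, Inhba, Pcsk1, and Plk2. The cyclic AMP response element (CRE), the binding motif of CREB, is spelled TGACGTCA and reads the same on both strands. It lay in 2 of the 5 windows, those of Pcsk1 and Plk2, and in 1.55% of all 32851 promoters of that length. The motifs are shown in capitals with 8 bases on either side.
Pcsk1, chr13:75089771-75089794, plus strand, 78 to 71 bases before the start: ggtagatcTGACGTCAagagatgg
Plk2, chr13:110394974-110394997, plus strand, 62 to 55 bases before the start: gctcgccgTGACGTCAcgaggccc
The shorter half-site TGACG, which is part of the full motif, lay on either strand in 3 of the 5 windows and in 17.8% of all promoters. Rgs2 held it at 2 places and no full motif. These were ggcgtggcTGACGcctccagg (chr1:144004204-144004224, minus strand), 67 to 63 bases before the start, and in the opposite orientation ggcgcctaCGTCAacagcgcc (chr1:144004322-144004342, minus strand), 185 to 181 bases before it. Pcsk1 had a further half-site 50 to 46 bases before the start. The CArG box bound by SRF was found in 0 of the 5 windows and in 1.47% of all promoters. A match is a description of the letters, and binding was not measured.

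The libraries listed 1559828 to 2374392 cytosines with a median coverage of 324 to 480 reads. A cytosine was listed only when covered by at least 10 reads of which at least 1 was unconverted. Listing therefore depends on coverage, and no listed level can be lower than 1 read over the coverage. Where a cytosine had 5000 reads or more and a level below 1%, the share of unconverted reads was 0.0837 to 0.087% in 5 libraries and 0.115% in replicate 1 of 6 h. Confidence in a level is limited by coverage, and since copies made by PCR were not told apart, read counts may overstate the number of molecules.

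Over the 9 genes, 2907 cytosines were listed in at least 1 library, giving 6710 entries over the 6 libraries, and all lay on the strand of their gene. Pcsk1 contributed the most, with 673 cytosines, followed by Plk2 with 616, Nptx1 with 461, Rgs2 with 328, Nptx2 with 283, Nrn1 with 276, Inhba with 184, Arc with 79, and Ptgs2 with 7. Only Plk2 and Rgs2 had cytosines listed in all 6 libraries, 71 and 20 of them. The planned test of coverage per gene, edgeR on cytosines listed in all 6 libraries, thus applied to these 2 genes. The other genes were tested with limma on the mean coverage of the cytosines each library listed, which was listed as an alternative, and Ptgs2, which had no listed cytosine at 0 h, was not tested.

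Coverage of most of the 9 genes was higher after KCl. At 2 h, 5 of the 8 genes tested with limma were higher than at 0 h and 0 were lower (adjusted p of at most 0.05), where 3.12% of all 12087 genes were called higher and 3.08% lower. At 6 h, 7 of the 8 were higher and 0 lower, against 12.7% and 12.5% of all genes. From 2 h to 6 h, 4 of the 8 were higher and 0 lower, against 10.9% and 9.94%. The median log2 fold change over the 8 genes was 1.37 for 0 h vs. 2 h and 2.19 in 0 h vs. 6 h, and that over all genes was 0.00 and 0.01. With edgeR, both Plk2 and Rgs2 were higher at 2 h and at 6 h than at 0 h, where 14.5% of the 2075 genes tested were called higher and 12.2% lower at 2 h, and 29.9% and 31.2% at 6 h. From 2 h to 6 h, Rgs2 was higher and Plk2 lower, against 23.1% and 26.7% of all genes. In cultures of this kind, a change in the share of a cell type and a change of RNA per cell cannot be told apart. The methods call the libraries biological replicates without naming separate cultures, and the p-values measure the spread between these libraries.

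**Figure D1:**
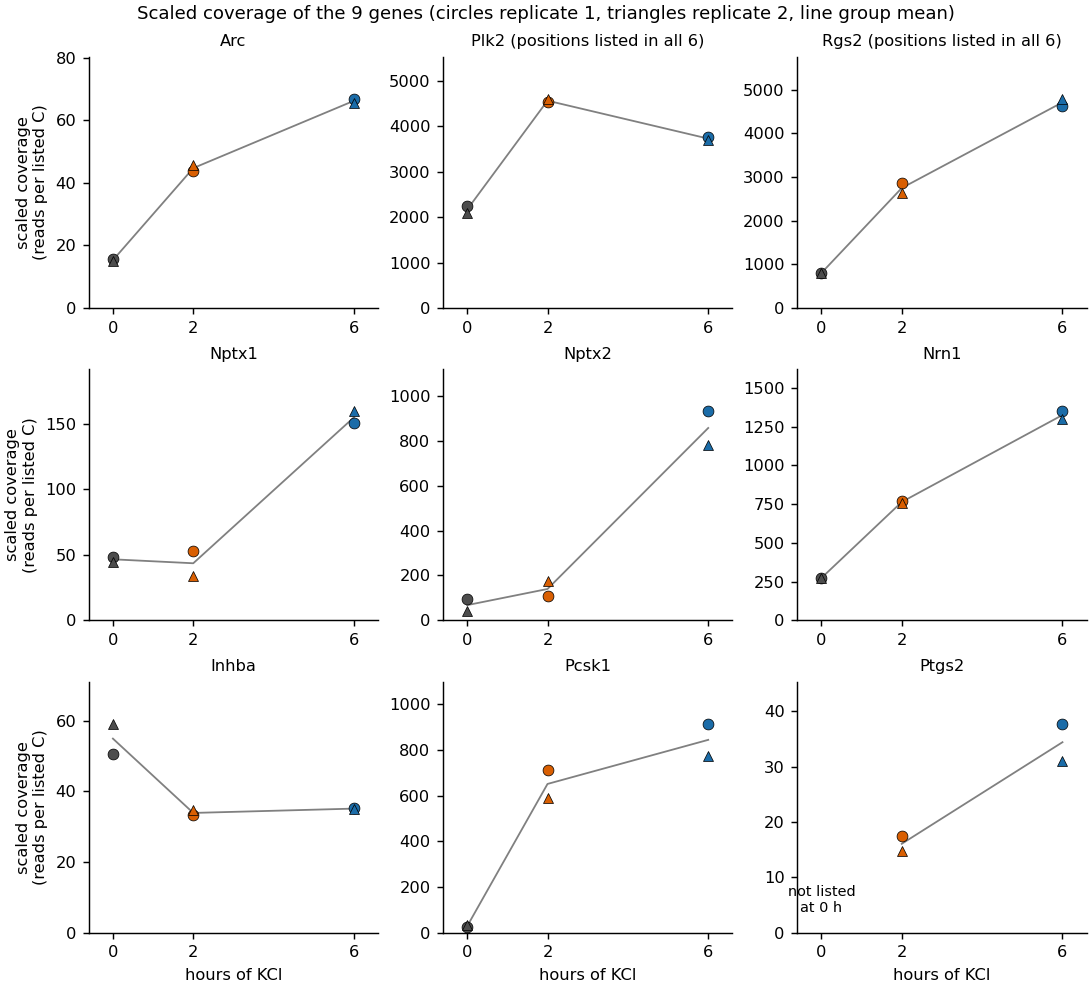
Scaled coverage (reads per listed cytosine, linear axes from 0) of each of the 9 genes by hours of KCl, with circles for replicate 1, triangles for replicate 2, and lines through group means. Arc, Rgs2, Nrn1, and Pcsk1 have higher means at each later time, Plk2 peaks at 2 h, the pentraxins rise at 6 h, and Inhba is highest at 0 h.

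Arc encodes a cytoskeleton-associated protein that promotes the removal of AMPA receptors from the synapse and is made from mRNA sent to dendrites. Its gene lies at chr15:74669083-74672568 on the minus strand. Scaled coverage, the mean number of reads per listed cytosine divided by a factor for each library, was 15.5 and 15.1 in the 0 h replicates, 43.8 and 45.6 after 2 h, and 66.8 and 65.6 after 6 h. The 3 time points did not overlap. The log2 fold change was 1.55 ± 0.28 (SE) for 0 h vs. 2 h (limma, adjusted p = 0.026) and 2.11 ± 0.28 for 0 h vs. 6 h (adjusted p = 0.004). For 2 h vs. 6 h it was 0.57 ± 0.28 (adjusted p = 0.19). These values rest on little: 2 and 1 cytosines were listed at 0 h, 19 and 17 after 2 h, and 25 and 18 after 6 h, of 957 cytosines in the mRNA. Leaving out any 1 of the 6 libraries took the 0 h vs. 2 h call past the threshold (adjusted p between 0.057 and 0.114) with log2 fold changes of 1.51 to 1.58, and the 0 h vs. 6 h call stayed (adjusted p of at most 0.03).

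Plk2 encodes a polo-like kinase that phosphorylates the spine protein SPAR (Sipa1l1) and marks it for degradation, which weakens excitatory synapses. The gene lies at chr13:110395046-110400844 on the plus strand and carries the CRE shown above. Over its 71 shared cytosines, scaled coverage was 2257 and 2084 reads at 0 h, 4529 and 4606 after 2 h, and 3758 and 3706 after 6 h. The highest values were thus at 2 h, and no time points overlapped. On the log2 scale, the fold change was 1.07 ± 0.06 for 0 h vs. 2 h (edgeR, adjusted p = 0.00017), 0.78 ± 0.06 for 0 h vs. 6 h (adjusted p = 0.00018), and −0.29 ± 0.06 for 2 h vs. 6 h (adjusted p = 0.0081). The fall after 2 h lost its call without replicate 1 (adjusted p = 0.0519) or replicate 2 (0.062) of 6 h, and over the cytosines each library listed (log2 fold change −0.38, limma, adjusted p = 0.189). In that limma fit, the call at 2 h was lost without replicate 1 of 0 h (adjusted p = 0.0875) or replicate 2 of 2 h (0.0706), and the call at 6 h without replicate 1 of 0 h (0.0834) or replicate 1 or 2 of 6 h (0.0866 and 0.0782). Cytosine by cytosine, both 2 h libraries were above both 0 h libraries at 116 of the 116 Plk2 cytosines listed in those 4 libraries, and both 6 h libraries were below both 2 h libraries at 134 of 137. Neighbouring cytosines share reads and are not independent.

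Rgs2 encodes a protein that speeds GTP hydrolysis by G protein alpha subunits, above all Gq, and so shortens receptor signals. Its gene lies at chr1:143999338-144004161 on the minus strand. Scaled coverage over its 20 shared cytosines was 796 and 810 reads at 0 h, 2853 and 2645 after 2 h, and 4631 and 4788 after 6 h. Each time point lay above the one before without overlap. The log2 fold change was 1.77 ± 0.06 for 0 h vs. 2 h (edgeR, adjusted p = 3.5e-05), 2.55 ± 0.06 for 0 h vs. 6 h (adjusted p = 1.2e-05), and 0.78 ± 0.06 for 2 h vs. 6 h (adjusted p = 0.00046). In edgeR, no call of Rgs2 was lost when a library was left out. Over the cytosines each library listed, the 2 h vs. 6 h call (limma) was lost without replicate 1 (adjusted p = 0.0508) or replicate 2 (0.053) of 6 h. At the 51 Rgs2 cytosines listed in the 0 h and 6 h libraries, the log2 ratio of scaled coverage ran from 2.37 to 2.73, and these cytosines lie between bases 102 and 1128 of the 3021-base mRNA, so that the ratio in the distal 3′ UTR was not measured.

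The neuronal pentraxins are secreted proteins that gather AMPA receptors at synapses, and Nptx2, also known as Narp, is the member classed as an immediate early gene. Nptx2 (chr5:144545902-144557478, plus strand) had scaled coverage of 96.2 and 39.9 reads at 0 h, 107 and 173 after 2 h, and 931 and 782 after 6 h. The 6 h libraries lay far above the others, while one 0 h library came close to one 2 h library. On the log2 scale, the fold change was 1.13 ± 0.44 for 0 h vs. 2 h (limma, adjusted p = 0.17), 3.78 ± 0.44 for 0 h vs. 6 h (adjusted p = 0.0029), and 2.65 ± 0.44 for 2 h vs. 6 h (adjusted p = 0.012). When only 100-base bins listed in all 6 libraries were used, a setting added once the data had been seen, the 0 h vs. 2 h difference was called (1.06, adjusted p = 0.0027), as were 18.0% of all genes in that direction, but in 500-base bins it was not (0.83, adjusted p = 0.058), nor with TMM factors (0.93, adjusted p = 0.231). Without replicate 1 or 2 of 0 h, the value was 1.78 or 0.51 for 0 h vs. 2 h and 4.42 or 3.15 for 0 h vs. 6 h, where those libraries listed 14 and 6 cytosines of Nptx2. The 2 h vs. 6 h call was lost without replicate 1 (adjusted p = 0.0693) or replicate 2 (0.0623) of 6 h.

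Nptx1 (chr11:119538719-119547753, minus strand), the pentraxin found in unstimulated neurons, had scaled coverage of 48.5 and 44.7 reads at 0 h, 53.3 and 33.9 after 2 h, and 150 and 160 after 6 h. The 0 h and 2 h libraries overlapped, and both 6 h libraries were above them. The log2 fold change was −0.13 ± 0.32 for 0 h vs. 2 h (limma, adjusted p = 0.85, with either sign when 1 library was left out), 1.73 ± 0.32 for 0 h vs. 6 h (adjusted p = 0.011), and 1.87 ± 0.32 for 2 h vs. 6 h (adjusted p = 0.013). The 0 h vs. 6 h call was lost without replicate 2 of 0 h (adjusted p = 0.0559), replicate 1 of 6 h (0.0515), or replicate 2 of 6 h (0.0566), and the 2 h vs. 6 h call without replicate 2 of 2 h (0.0524) or either replicate of 6 h (0.0607 and 0.0666). Whether the pentraxins differed from each other in their response was not tested.

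Nrn1 encodes neuritin, a GPI-anchored protein, also released, that promotes neurite growth and the maturation of synapses. The gene lies at chr13:36725361-36730680 on the minus strand. Scaled coverage was 274 reads in each 0 h replicate, 772 and 756 after 2 h, and 1350 and 1301 after 6 h. The replicates lay close together, and the time points did not overlap. On the log2 scale, the fold change was 1.48 ± 0.15 for 0 h vs. 2 h (limma, adjusted p = 0.0041), 2.28 ± 0.15 for 0 h vs. 6 h (adjusted p = 0.0007), and 0.79 ± 0.15 for 2 h vs. 6 h (adjusted p = 0.016). The 2 h vs. 6 h call was lost without replicate 1 or 2 of 2 h or replicate 1 or 2 of 6 h. Over cytosines listed in the 4 libraries compared, that change was called but smaller, at 0.52 (edgeR). It was likewise called at 0.49 in 100-base bins and 0.60 in 500-base bins (limma, added after seeing the data).

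Pcsk1 encodes the convertase that cuts prohormones and neuropeptide precursors in dense-core vesicles. Its gene lies at chr13:75089826-75134861 on the plus strand, with the CRE shown above. Scaled coverage was 23.8 and 33.1 reads at 0 h, 712 and 592 after 2 h, and 917 and 774 after 6 h. Both treated groups lay far above 0 h. Pcsk1 had the largest change of the 8 genes tested, with a log2 fold change of 4.53 ± 0.26 for 0 h vs. 2 h (limma, adjusted p = 0.00032) and 4.91 ± 0.26 for 0 h vs. 6 h (adjusted p = 0.0002). For 2 h vs. 6 h it was 0.38 ± 0.26 (adjusted p = 0.32). Both calls against 0 h stayed without any 1 library, with adjusted p of at most 0.0081 and 0.0141.

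Inhba encodes the beta A subunit, which pairs with itself to form activin A, a secreted ligand of the TGF-beta family. Of the 8 genes tested, it alone had no called change against 0 h in the fit reported. The gene (chr13:16011851-16031621, plus strand) had scaled coverage of 50.7 and 59.2 reads at 0 h, 33.2 and 34.6 after 2 h, and 35.3 and 35.0 after 6 h. Both 0 h libraries were above the other 4. The log2 fold change was −0.69 ± 0.29 for 0 h vs. 2 h (limma, adjusted p = 0.20), −0.64 ± 0.29 for 0 h vs. 6 h (adjusted p = 0.14), and 0.05 ± 0.29 for 2 h vs. 6 h (adjusted p = 0.91). In 500-base bins listed in all 6 libraries, again chosen after seeing the data, the 0 h vs. 2 h difference was −0.94 (limma, adjusted p = 0.0486). In these bins, 31.0% of all genes were called in either direction and 1792 of the 10828 tested were lower. The same limma fit gave −0.34 for 0 h vs. 6 h (adjusted p = 0.338) and 0.60 for 2 h vs. 6 h (adjusted p = 0.118). The number of cytosines listed varied widely between replicates, with 77 and 10 at 0 h, 32 and 2 after 2 h, and 35 and 64 after 6 h. Their segments differed too, with 66 in the coding sequence in replicate 1 of 0 h and 27 in the 3′ UTR in replicate 1 of 2 h. Within the coding sequence, coverage scaled with the edgeR factors was 46.8 and 61.9 at 0 h. It was 36.7 in replicate 1 of 2 h, and 57.2 (3 cytosines) and 31.1 at 6 h, so that 0 h and 6 h overlapped.

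Ptgs2 encodes cyclooxygenase 2, the inducible enzyme that turns arachidonic acid into the precursor of prostaglandins. Its gene (chr1:150100031-150108227, plus strand) was listed at no cytosine in either 0 h library, at 2 and 1 cytosines at 2 h, and at 2 in each 6 h library, of 908 cytosines in the mRNA. Scaled coverage at these was 17.4 and 14.7 reads after 2 h, and 37.8 and 31.1 after 6 h. The 6 h libraries were above the 2 h libraries. The cytosines listed differed in every library, and a cytosine with no unconverted read is not listed at any coverage. Absence at 0 h therefore does not show that the RNA was absent. Listing becomes more likely with coverage, and an upper bound on the RNA at 0 h was not estimated.

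Over the cytosines each library listed, the genes could be ordered by reads per cytosine, a measure that does not depend on the length of the mRNA. At 6 h, mean scaled coverage was 3431 ± 26.5 (SD, n = 2) for Rgs2, 1610 ± 29.1 for Plk2, 1325 ± 34.5 for Nrn1, 857 ± 106 for Nptx2, 845 ± 101 for Pcsk1, 155 ± 6.55 for Nptx1, 66.2 ± 0.836 for Arc, 35.1 ± 0.214 for Inhba, and 34.4 ± 4.77 for Ptgs2. The replicates of Nptx2 and Pcsk1 overlapped, as did those of Inhba and Ptgs2, and the other neighbours in this order did not. A cytosine with more reads is more likely to be listed, which can put the mean over listed cytosines above that over all cytosines. This would weigh most in genes with few of them listed. Stretches of neighbouring cytosines that are all listed at few reads can lower the mean, and neither effect was estimated. Arc, a common marker of neuronal activity, had fewer reads per cytosine than 6 of the other genes at 6 h.

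**Figure D2:**
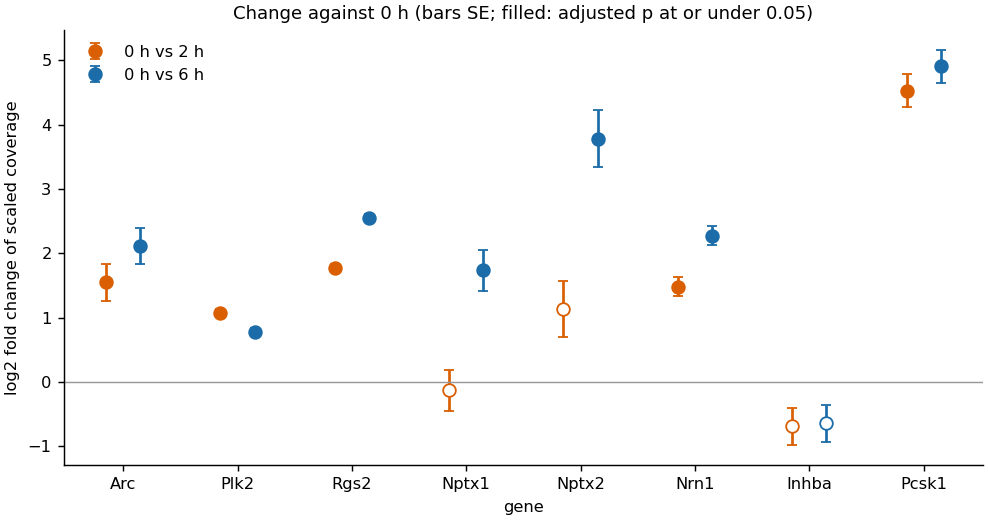
Log2 fold change of scaled coverage (points, with bars of 1 SE) against 0 h for the 8 genes tested, at 2 h (orange) and 6 h (blue), where filled points have an adjusted p of at most 0.05. Plk2 and Rgs2 are from edgeR and the others from limma. Pcsk1 has the largest change at both times, Plk2 is the single gene with a called change whose value at 6 h is under that at 2 h, and neither Inhba value is called.

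Reads were spread unevenly along the mRNAs. Segment values were scaled with the edgeR library factors and are not to be set against the per-gene values of the other genes above. In the coding sequence (CDS) of Plk2, unscaled coverage in replicate 1 of 2 h reached 10914 reads at its highest, against a mean of 2032 over the listed CDS cytosines. In Pcsk1, the 3′ UTR had mean scaled coverage of 27.3 and 89.5 reads at 2 h and 96.6 and 35.9 after 6 h. Its CDS had 1145 and 869 at 2 h and 1034 and 1105 after 6 h. No library of either segment overlapped one of the other, and at 0 h no cytosine of the Pcsk1 3′ UTR or 5′ UTR was listed. Nrn1 also had more reads in the CDS, with 1639 and 1540 at 6 h, than in the 3′ UTR, with 1076 and 867. Rgs2 went the other way at 6 h, with 3796 and 3963 reads in the 3′ UTR and 2667 and 3006 in the CDS. Its 3′ UTR reads were most dense just after the stop codon and fell off towards the 3′ end. The fold changes above were taken within a gene, but among the main fits only edgeR, for Plk2 and Rgs2, used the same cytosines in each library. In limma, the means could cover different segments. Replicate 1 of 2 h listed 200 Pcsk1 cytosines in the CDS, 45 in the 5′ UTR, and 108 in the 3′ UTR. In 100-base bins listed in all 6 libraries, added after seeing the data, limma gave Pcsk1 log2 fold changes of 4.55 at 2 h and 4.83 at 6 h.

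**Figure D3:**
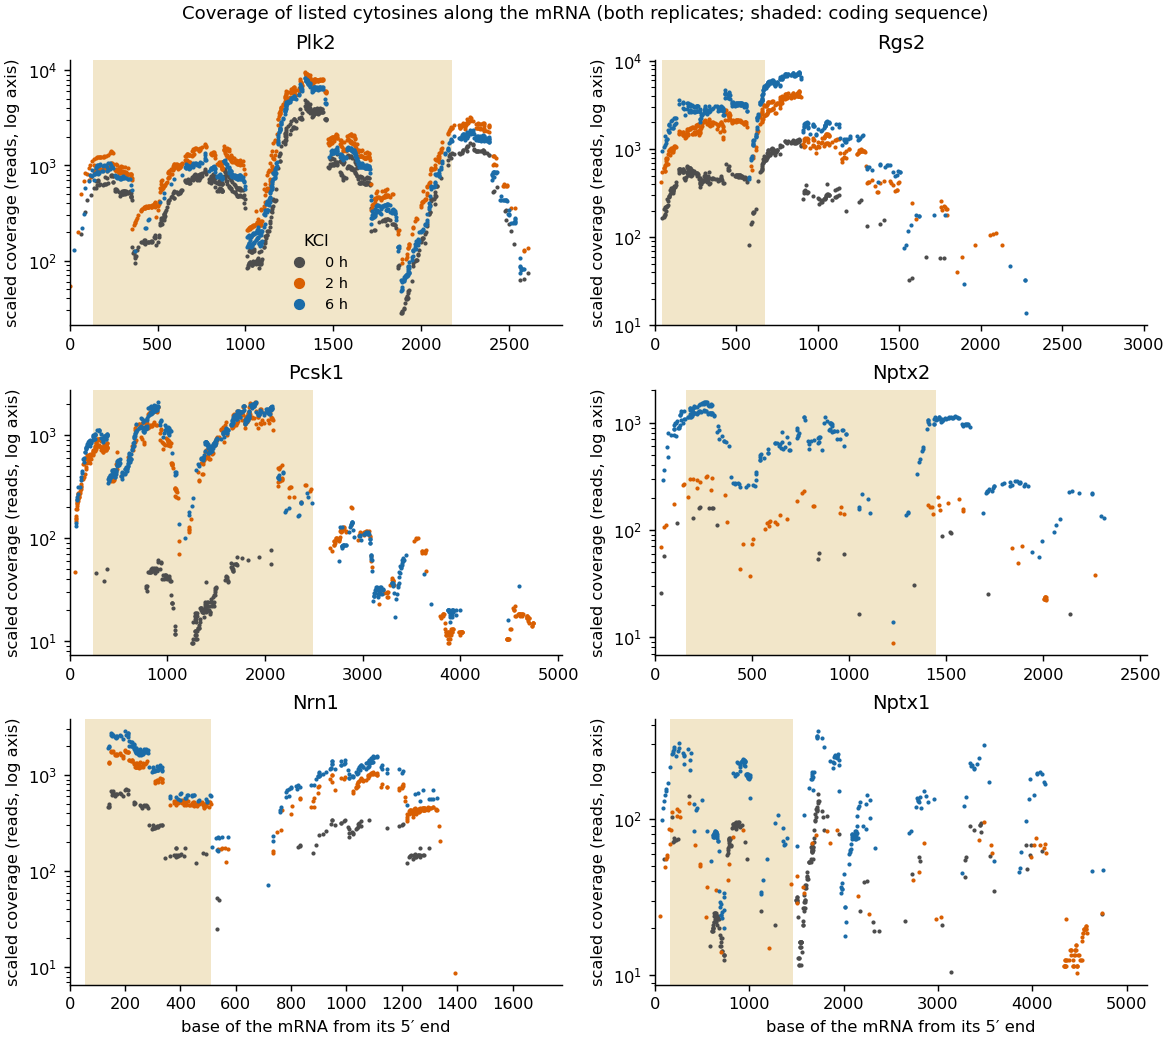
Scaled coverage (reads, log axis) of every listed cytosine against its position in the mRNA (bases from the 5′ end) for 6 genes at 0 h (grey), 2 h (orange), and 6 h (blue), both replicates together, with the CDS shaded. The peaks and troughs lie at much the same bases at each time point. Plk2 is ordered 2 h, 6 h, 0 h and Rgs2 6 h, 2 h, 0 h where all time points listed cytosines.

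At the cytosines of the 9 genes with many reads, methylation levels were low, while single entries with few reads were higher, such as 6 of 10 reads (60%) outside the exons of Plk2 in replicate 1 of 2 h. Of the 6710 entries, 3748 (55.9%) had a single unconverted read, against 55.8 to 63.6% per library over all nuclear genes, and 1257 of the 2907 cytosines (43.2%) were listed in 1 library alone. In the standard filter, a cytosine needs at least 20 reads, a level of at least 10%, and 6 unconverted reads. It was passed by 1 entry, the Pcsk1 3′ UTR cytosine shown above, with 6 of 60 reads unconverted in replicate 1 of 6 h. The same cytosine had 1 of 73 reads unconverted in replicate 2 of 6 h and 1 of 58 in replicate 2 of 2 h, and the other 3 libraries did not list it. Thus no cytosine of the 9 genes passed in both libraries of any group. Among all listed cytosines of nuclear genes, 0.0548 to 0.0977% passed per library.

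Of 5413 entries with at least 100 reads, 299 had a level of at least 1%, the highest was 6%, in Nrn1, and 0 reached 10%. Of 2473 entries with at least 1000 reads, the highest level was 0.888%. By segment, entries with at least 100 reads had a median level of 0.279% in the 5′ UTR, 0.18% in the CDS, and 0.186% in the 3′ UTR, and 2.91%, 4.82%, and 4.86% of them had a level of at least 1%. Pcsk1 gave 108 of the 172 such entries in the 5′ UTR, and Plk2 gave 2009 of the 3942 in the CDS. The medians thus mix genes of unlike coverage, on which the lowest listed level depends, and a difference between segments was not tested. Outside exons, 33 entries were listed, none with 100 reads.

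Within Plk2 and within Rgs2, the cytosine with the highest mean level among those with 20 reads or more in every library was the CDS site shown above. At the Plk2 site the level was 1.04% and 1.85% before KCl, 0.738% and 0.307% after 2 h, and 3.28% and 0.658% after 6 h, with 96 to 326 reads and 1 to 6 of them unconverted. The time points overlapped, and the replicates of 6 h held the highest value and one of the lower ones. At the Rgs2 site the level was 0.256% and 1.24% before KCl, 0.0806% and 0.0984% after 2 h, and 0.11% and 0.0418% after 6 h, with 1 to 4 unconverted reads. Both 0 h values were above the later ones, at a coverage of 390 and 323 reads that allows no listed level under 1 read.

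**Figure D4:**
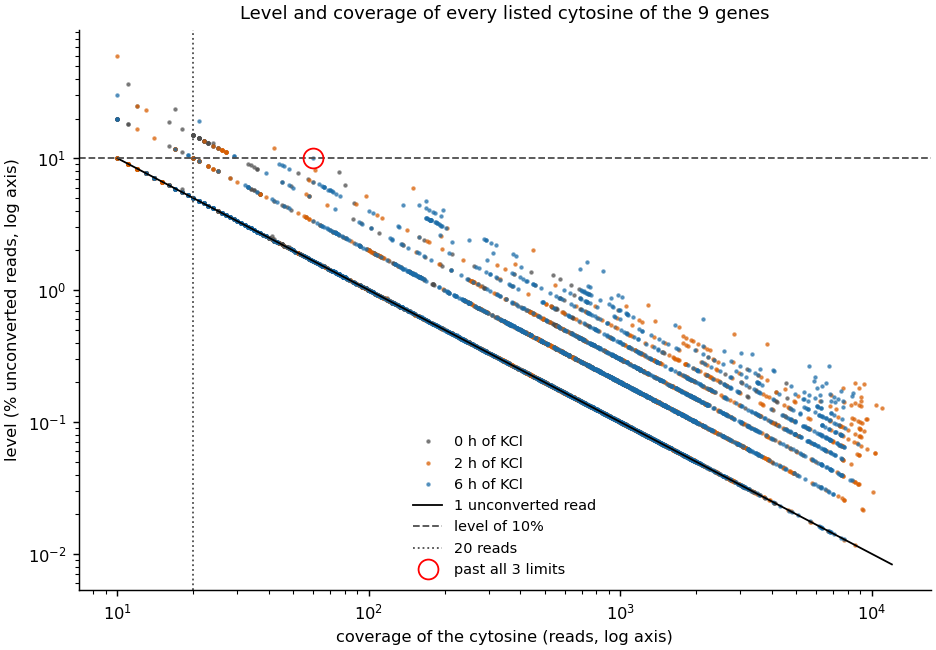
Methylation level (% unconverted reads, log axis) against coverage (reads, log axis) of each of the 6710 entries, colored by time point, with a solid line for 1 unconverted read, a dashed line at 10%, and a dotted line at 20 reads. The bands are whole numbers of unconverted reads, and 1 entry (circled, Pcsk1 at 6 h) is past all 3 limits of the standard filter.

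Differential methylation was to be tested at cytosines with at least 20 reads in the 4 libraries compared that passed the standard filter in at least 1 of them, and 0 cytosines of the 9 genes met this in any of the 3 comparisons. In a test added once the data had been seen, every cytosine listed in the 4 libraries with at least 20 reads was tested by Fisher's exact test, two-sided, after adding the reads of both replicates. Among those of the 9 genes, 1 of 154 was called for 0 h vs. 2 h (18 at an unadjusted p under 0.05), 5 of 177 for 0 h vs. 6 h (15 unadjusted), and 0 of 252 for 2 h vs. 6 h (25 unadjusted). Of all cytosines tested, 0.252%, 0.653%, and 0.672% were called. All calls in the 9 genes were lower at the later time, and in Rgs2 and Pcsk1. Among all cytosines called, 506 were higher and 222 lower for 0 h vs. 2 h, and 1742 were higher and 386 lower in 0 h vs. 6 h. The levels at 0 h were measured at lower coverage, where listing sets a higher floor, and the test leaves out the spread between replicates.

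The call for 0 h vs. 2 h was the Rgs2 3′ UTR cytosine at chr1:144001662. It had 3 of 1004 and 7 of 752 reads unconverted at 0 h, 2 of 3843 and 2 of 2667 after 2 h, and 5 of 5337 and 3 of 6080 after 6 h. The summed level was 0.569% at 0 h and 0.0614% at 2 h (exact test, adjusted p = 0.0358), and 0.0701% at 6 h (adjusted p = 0.00973). Both 0 h libraries were above the other 4. For 0 h vs. 6 h, the lowest p was at the Pcsk1 CDS cytosine at chr13:75115297, with 3 of 23 and 1 of 32 reads unconverted at 0 h and 1 of 816 and 1 of 910 at 6 h (7.27% and 0.116%, exact test, adjusted p = 0.00534). The other calls for 0 h vs. 6 h were Rgs2 at 144002277 in the CDS (0.967% to 0.0769%, adjusted p = 0.0117) and 144001615 in the 3′ UTR (0.507% to 0.0726%, adjusted p = 0.0315), and Pcsk1 at 75110886 in the CDS (5.06% to 0.188%, adjusted p = 0.0226). At each of these, listing in the 0 h libraries required at least 1 unconverted read per library, as at every other cytosine. At 23 and 32 reads that is a far higher level than at 816 and 910. Where coverage rose, the test thus favoured lower later levels, and this direction is not read as a result.

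To weigh listed against unlisted cytosines, unconverted reads were divided by the reads estimated over all mRNA cytosines within 100 bases of a listed one, with coverage interpolated between listed cytosines. This share was 0.0576 to 0.0794% in the 6 Nptx2 libraries, 0.0641 to 0.212% in Rgs2, and 0.0758 to 0.194% in Plk2. For Plk2 the highest of these was replicate 1 of 6 h, the library with the highest share over all deep cytosines. In Pcsk1 it was 1.76% and 0.811% at 0 h and 0.0919 to 0.147% in its 4 libraries at 2 h and 6 h. These are not comparable between time points, since the share counts only cytosines near one that already holds an unconverted read, which can raise it at low coverage, and mean coverage of the listed Pcsk1 cytosines was 27.6 and 32.9 reads at 0 h and 564 to 812 later, with 263 and 338 mRNA cytosines taken in at 0 h and 658 to 865 later. Inhba had 0.103 to 0.429%.

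Many of the listed cytosines were neighbours. Runs were counted as at least 5 consecutive cytosines of the mRNA that were all listed, without regard to other bases between them. The longest run, in Plk2 in replicate 1 of 6 h, held 201 cytosines over 814 bases with a median of 5 unconverted reads each. In Pcsk1 at 0 h, 96.9% and 90.1% of the listed cytosines lay in such runs, the longest of 73 and 44 cytosines, with a median of 2 unconverted reads at median coverages of 21 and 37 reads. In Inhba, replicate 1 of 0 h had 79.2% of its 77 cytosines in runs and replicate 2 had 0% of 10. Nptx1 likewise changed between replicates, with 0% and 62.3% at 2 h and 65.9% and 0% at 6 h. Arc and Ptgs2 had no run in any library. What gave the runs was not tested. The number of listed cytosines of a gene is accordingly no measure of how many are methylated.

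**Figure D5:**
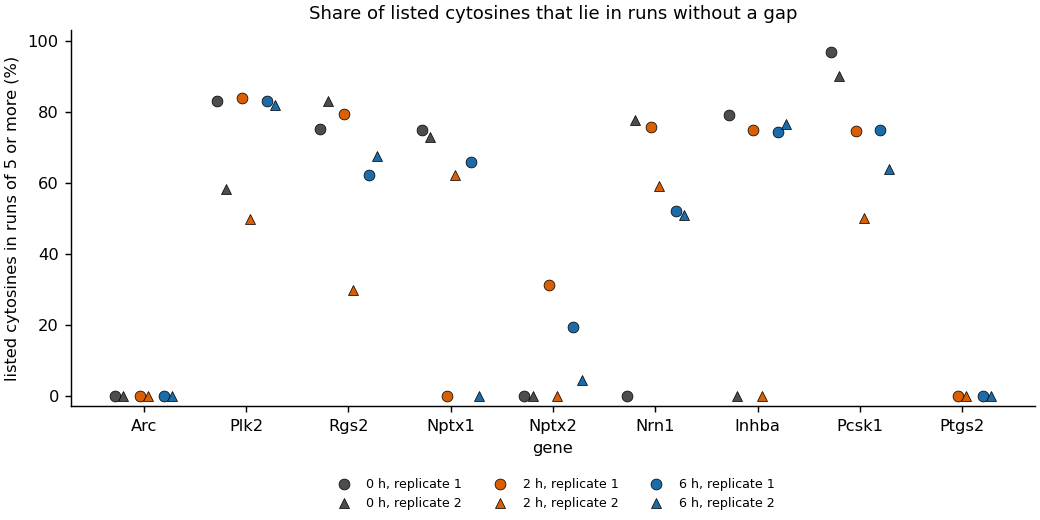
Share (%) of the listed mRNA cytosines of each gene that lie in runs of at least 5 consecutive listed cytosines, by library, with color for time point, circles for replicate 1, and triangles for replicate 2. Pcsk1 at 0 h has the highest shares, Arc and Ptgs2 are at 0 in all libraries that list them, and Inhba, Nptx1, and Nrn1 each have time points with 1 replicate at 0 and the other above 60%.

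The pathways around the 9 genes were followed through fixed lists, tested with limma over the cytosines each library listed. For each count, the shares of all genes called are 3.12% higher and 3.08% lower at 2 h, and 12.7% higher and 12.5% lower at 6 h. Of 13 immediate early transcription factors tested out of 17, 10 were higher and 0 lower at 2 h, and 10 were higher and 1 (Jun, named after its value was seen) lower at 6 h. The median log2 fold change was 3.95 at 2 h and 2.61 at 6 h. Fos had scaled coverage of 35.9 and 31.9 reads at 0 h, 5080 and 5475 after 2 h, and 3888 and 2409 after 6 h (log2 fold change 7.28, adjusted p = 4.8e-05 for 0 h vs. 2 h). Npas4, a neuron-specific factor that responds to calcium, went from 12.4 and 11.1 reads to 1320 and 887 at 2 h and 697 and 300 at 6 h (6.53, adjusted p = 0.0005). Both groups of libraries with KCl lay far above 0 h, while for 2 h vs. 6 h neither Fos (limma, adjusted p = 0.0525) nor Npas4 (0.0729) was called. Some of the other settings that left out no replicate called this fall. Its log2 fold change in them was −0.865 to −0.785 for Fos and −1.28 to −0.716 for Npas4.

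Around Pcsk1, the list of prohormone processing enzymes and dense-core vesicle cargo had 21 of 22 genes tested, of which 7 were higher and 0 lower at 2 h and 10 were higher and 0 lower at 6 h, against 3.12% and 12.7% of all genes called higher (medians 0.32 and 0.62). Bdnf, the neurotrophin, had scaled coverage of 60.9 and 38.7 reads at 0 h, 833 and 530 after 2 h, and 1742 and 1277 after 6 h (log2 fold change 4.94 for 0 h vs. 6 h, adjusted p = 0.00068). Vgf, a precursor of secreted peptides, had 153 and 137, then 1265 and 1125, then 2273 and 2088 (3.91, adjusted p = 8.8e-05). In both, no time points overlapped. Around Inhba, 13 of 16 genes of the activin pathway were tested, and 1 was higher and 1 lower at 2 h, and 0 higher and 2 lower at 6 h, where 12.5% of all genes were called lower. These counts are near the background and are not read as a result about the list. Bambi, a decoy receptor of the TGF-beta family, was the higher one (111 and 107 reads at 0 h, 225 and 307 at 2 h, adjusted p = 0.0497), a call lost without any 1 of the 6 libraries (0.0668 to 0.184). Fst, the activin-binding follistatin, went from 450 and 463 reads at 0 h to 224 and 199 at 6 h (log2 fold change −1.11, limma, adjusted p = 0.0082). Acvr1b, a type I activin receptor named after its value was seen, was the lower gene at 2 h and the other lower gene at 6 h.

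Around Rgs2, all 19 regulators of G protein signalling and G proteins were tested, with 2 higher at 2 h, 5 higher at 6 h, and 0 lower, against 3.12% and 12.7% of all genes called higher (medians 0.14 and 0.19). Rgs16 had scaled coverage of 31.7 and 29.6 reads at 0 h, 84.2 and 146 after 2 h, and 267 and 197 after 6 h (log2 fold change 1.86, adjusted p = 0.0277 at 2 h, and 2.90, adjusted p = 0.0033 at 6 h). Rgs4, of the same family as Rgs2, had 321 and 297, then 820 and 734, then 1164 and 1000 (1.33, adjusted p = 0.0097, and 1.80, adjusted p = 0.0017). Their libraries did not overlap between 0 h and either later time. In bins, a setting added once the data had been seen, Rgs16 had lower fold changes, down to 1.10 (100-base bins) at 2 h and 2.14 (500-base bins) at 6 h, and for Rgs4 at 6 h the cytosines listed in the 4 libraries compared gave 1.21, all called. The calls at 2 h were lost for Rgs16 without any 1 library (adjusted p of 0.0518 to 0.123) and for Rgs4 without either 0 h library or replicate 1 of 2 h (up to 0.0638). The other genes called at 6 h, named after their values were seen, were Rgs10, Gnai1, and Gnb1.

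Around Plk2, all 14 polo-like kinases and regulators of Rap and Ras were tested, with 2 higher at 2 h, 5 higher at 6 h, and 0 lower, against 3.12% and 12.7% of all genes called higher (medians 0.26 and 0.36). Sipa1l2, a Rap inhibitor of the SPAR family, had 160 and 170 reads at 0 h, 305 and 370 after 2 h, and 806 and 711 after 6 h (log2 fold change 2.20 at 6 h, adjusted p = 0.0017). Plk3 had 133 and 113, then 257 and 248, then 409 and 366 (1.66, adjusted p = 0.004). In contrast to Plk2, both had their highest values at 6 h, although that difference was not tested. Both calls at 2 h were lost without any 1 library, with adjusted p of 0.0659 to 0.13 for Sipa1l2 and 0.0717 to 0.159 for Plk3. Sipa1l1, the Plk2 substrate, and Pdlim5 were among the other genes called at 6 h, likewise named after their values were seen.

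Of the 23 partners of Arc and the pentraxins in AMPA receptor clustering and trafficking, all were tested, 0 were called at 2 h (limma, 4 at an unadjusted p under 0.05), and at 6 h Nptxr and Homer3 were higher and Gria1, Sh3gl2, and Camk2b lower (medians 0.16 and −0.19). The shares of all genes called at 6 h, 12.7% higher and 12.5% lower, are close to these counts. Of these genes, Nptxr, Gria1, and Camk2b were named after their values were seen. Homer3, a postsynaptic scaffold, went from 187 and 153 reads at 0 h to 310 and 319 at 6 h (log2 fold change 0.89, adjusted p = 0.0286), and Sh3gl2, an endocytic endophilin, from 1537 and 1367 to 834 and 1000 (−0.67, adjusted p = 0.0224, but −0.34 in 500-base bins). Each call was lost without either 0 h library or replicate 1 of 6 h, and for Homer3 also replicate 2 of 6 h, with adjusted p up to 0.127 and 0.111. Of the neuritin list, 10 of 11 genes were tested, 0 were called at 2 h (limma, 2 unadjusted), and Cntn2 and Negr1, a pair of GPI-anchored adhesion proteins, were lower at 6 h, as were 12.5% of all genes. Cntn2 went from 226 and 216 reads to 116 and 113 (−0.95, adjusted p = 0.0267, up to 0.109 without a library of 0 h or 6 h). Negr1 went from 1228 and 1235 to 930 and 791 (−0.52, adjusted p = 0.0384, 0.0526 to 0.151 without any 1 library). Around Ptgs2, 4 of 13 genes of prostaglandin synthesis and signalling were tested, with 0 called at 2 h (limma, 1 unadjusted) and 2 higher at 6 h, where 12.7% of all genes were called higher. Ptger3, a prostaglandin receptor, had 89.4 and 80.4 reads at 0 h, 63.7 and 45.6 after 2 h, and 238 and 311 after 6 h (1.68, adjusted p = 0.0095, 0.057 at most without replicate 2 of 0 h or of 6 h). Ptges3, a cochaperone also described as a prostaglandin synthase, had 957 and 612 at 0 h and 1351 and 1474 at 6 h (0.88, adjusted p = 0.0314, but 0.42 over cytosines listed in the 4 libraries compared), and lost the call without replicate 2 of 0 h or either replicate of 6 h (up to 0.138).

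For each of the 8 genes listed in all libraries, the genes with the most similar profile over the 6 libraries were found by the Euclidean distance between centred log2 scaled coverages. Rgs2 was nearest to Scg2, the dense-core vesicle protein secretogranin II, at a distance of 0.14, and then to Zfhx2os (0.33). Arc and Nrn1 were among the nearest of each other (0.24), with Pard6a (0.18) nearest to Arc and Grasp (0.24) to Nrn1. Psmb2 (0.35) was among the nearest to Plk2. Nptx1 was nearest to Adat3 (0.27) and Rock2 (0.35), and Inhba to Lmnb1 (0.15) and Ccdc115 (0.19). Pcsk1 and Nptx2 had no gene as close, the nearest being Sertad1 (0.99) and Crem (1.15) for Pcsk1, and Dennd2c (1.21) and Nppc (1.31) for Nptx2. These are likenesses over 6 libraries of 3 time points, without a test.

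The markers of the labelled cells were present, with all 6 neuronal markers listed in each library and summed scaled coverage of 17332 to 22264 reads. Among them Nefl was higher and Tubb3 lower at both later times. The 4 glutamatergic markers summed to 1233 to 1914, with none called against 0 h, and the 4 GABAergic markers to 2169 to 2524 in the 0 h libraries, 3178 to 3299 after 2 h, and 4431 to 5328 after 6 h, with Gad1 and Gad2 called higher at 6 h. All 5 astrocyte markers were listed, at 4019 to 5279 in sum, Aldh1l1 being lower at 6 h, and all 5 of the oligodendrocyte lineage, at 1839 to 2994, with Olig1 and Sox10 lower at 2 h. Of the microglial markers, Csf1r, C1qa, Aif1, and P2ry12 were not listed in all 6 libraries and Cx3cr1 was (173 to 304 reads), and of the endothelial and fibroblast markers only Dcn was (13.5 to 48.7). The GABAergic sum was mostly Gad1, with 1485 and 1324 reads at 0 h and 3993 and 3232 after 6 h, while Dlx1 had 438 and 322 at 0 h and 278 and 283 after 6 h, and Slc32a1 had 411 and 369, then 517 and 465. The part of cell types in the changes of the 9 genes was not tested.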

How the data were processed

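The 6 RNA BS-seq libraries were grouped by their labels into 3 time points of KCl with 2 replicates each, all from poly(A) RNA of cortical cultures. The authors trimmed reads with Trim Galore, aligned them with meRanRh of meRanTK, and listed candidate cytosines with meRanCall. The deposited counts are raw reads covering a cytosine and raw reads with an unconverted C. The methylation level was deposited as a fraction, rounded, and was recomputed from the counts. Caller scores and p-values were not used. The submitters' processing notes name mm10 and R 4.1.1. Filters on single reads could not be repeated from the lists.

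Positions with reference C, called state, and 1 of the 9 symbols were taken. The 9 genes and all lists were chosen with earlier results of these data known. Summed coverage over cytosines listed in all 6 libraries (at least 10 per gene) was tested with edgeR's quasi-likelihood test after TMM scaling. Because that fit held 2 of the 9 genes, limma on log2 of the mean coverage over each library's own listed cytosines, with no pseudocount and centred on the median gene, was used for the others. Both fits took all 6 libraries, 1 term per time point, and Benjamini-Hochberg adjustment over all genes, with calls at 0.05. The edgeR fit and limma were tested on simulated data over the shared cytosines, and the limma fit over each library's own cytosines was not simulated. Sites were tested with Fisher's exact test, and in an alternative with limma on the log2 ratio of unconverted to converted reads, each plus 0.5. Segments came from GENCODE M21 (longest mRNA), sequence from GRCm38, and promoters from RefSeq. Named were the 9 genes, the 2 called genes with the largest change at 2 h or 6 h of each list, the 2 nearest genes, and sites past the standard filter or with the highest mean level. Some genes that this rule or a list names are not reported here. Motif letters other than A, C, G, and T are given by name. Alternatives covered other position sets, scalings, filters, DESeq2 (1.42.0), leaving out each library, the replicate block, and other site filters. R 4.3.3, edgeR 4.0.16, limma 3.58.1, Python 3.11.15, pandas 2.3.3, scipy 1.17.1, and matplotlib 3.10.9 were used.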

Additional observations from a re-analysis of the deposited data

How the results depend on the processing

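Coverage is limiting: Arc, Inhba, and Ptgs2 rest on few cytosines. Of the values of the 9 genes recomputed without 1 library, with edgeR values for Plk2 and Rgs2, 123 of 144 kept their direction and their side of the threshold, 20 lost their call, and 1 changed sign, and under other settings 154 of 158 did so, 2 were gained (Nptx2 and Inhba for 0 h vs. 2 h, in bins), 1 was lost (Plk2 for 2 h vs. 6 h, in limma over own cytosines), and 1 changed sign. Further settings of that limma fit are not in these counts for Plk2 and Rgs2. In them Plk2 was likewise not called for 2 h vs. 6 h with TMM factors (adjusted p = 0.185), at least 10 cytosines per library (0.185), or the replicate block (0.147), nor for 0 h vs. 6 h with TMM factors. For the partner genes, 209 of 288 values without 1 library and 212 of 249 under other settings did so. The sign changes were all for 0 h vs. 2 h, and none was called either way. Nptx1 ranged from −0.46 to 0.18 without 1 library and was 0.14 in 100-base bins. Homer3 ranged from −0.021 to 0.26 without 1 library and was −0.094 with TMM factors. Sh3gl2 was −0.011 over cytosines listed in the 4 libraries compared and −0.090 with TMM factors, and Cntn2 coverage, 0 h vs 2 h, was −0.12 in 100-base bins and −0.00264 in 500-base bins. The replicate numbers were not shown to pair the libraries (correlations of deviations 0.449, −0.297, and −0.289), and the replicate block gave 513, 1245, and 1005 called genes in edgeR and 521, 2766, and 2157 in limma. It took the call from Sipa1l2 (adjusted p = 0.0565), Plk3 (0.0596), and Bambi (0.0586) for 0 h vs. 2 h, Negr1 (0.0541) for 0 h vs. 6 h, and Homer3 (0.069) for 2 h vs. 6 h, and gave Npas4 one for 2 h vs. 6 h (0.0436), and it changed no other call of the genes named in the fit reported for each.

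The counts of called genes follow for 2 h against 0 h, then 6 h against 0 h, then 6 h against 2 h. Over shared cytosines they were 553, 1269, and 1035. With at least 1 shared cytosine per gene they were 1329, 2890, and 2573, with 100-base bins 3638, 6060, and 5947, with 500-base bins 3361, 6130, and 6021, and over each library's own cytosines 749, 3052, and 2524, all with more genes tested. Cytosines listed in the 4 libraries compared gave 2276 (6 h against 0 h) and 1673 (6 h against 2 h). Leaving out 1 library gave 235 to 667, 899 to 1430, and 601 to 1156. Over own cytosines, leaving out 1 library gave 105 to 313, 1267 to 2909, and 301 to 1974, and at least 10 cytosines per library gave 469 for 0 h vs. 2 h. TMM factors in place of centring shifted the median of all genes by −0.205 at 2 h and −0.234 at 6 h against 0 h, and the calls to 206 higher and 638 lower (377 and 372 as reported) and to 870 and 2388 (1538 and 1514). With them Plk2 over its own cytosines was not called for 0 h vs. 6 h (0.64, adjusted p = 0.0588), and Sipa1l2 (0.0585), Plk3 (0.0625), and Bambi (0.0838) at 2 h and Homer3 (0.0699) and Ptges3 (0.0759) at 6 h lost their calls against 0 h, as did Homer3 for 2 h vs. 6 h (0.0563), while Fos gained one there (0.0381). Scaling by total coverage gave 248 higher and 348 lower over shared cytosines for 0 h vs. 2 h (300 and 253 as reported).

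Of all sites, 355, 327, and 605 were called by Fisher's exact test. The standard filter in both replicates gave 271, 185, and 352, every listed cytosine 728, 2128, and 2321, and limma 28, 0, and 0 (315, 81, and 112 at an unadjusted p under 0.05). With a replicate block (Cochran-Mantel-Haenszel) they were 376, 427, and 846, and without 1 library 214 to 329, 205 to 840, and 298 to 1054. Entries of the 9 genes past the standard filter numbered 1, and 2 at a coverage minimum of 10, the added entry being in Plk2 outside exons (6 of 10 reads in replicate 1 of 2 h). Summed replicates gave 0, and leaving out 1 library gave 0 to 1, with 0 without replicate 1 of 6 h. The median over libraries of the unconverted share, estimated within 50 bases in place of 100, moved by more than 1 SD between libraries for Nptx2, Ptgs2, and Inhba, and in Arc the share in replicate 1 of 0 h went from 0.225% to 0.482%.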
